A study of Mus musculus with 2 samples.

Results

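The nuclear receptor genes outside the circadian clock were described by their CHOP peaks in the stressed mouse liver. They are 40 of 21866 protein-coding genes, chosen by name as members of the receptor superfamily, and 9 further receptor genes, clock genes and Hnf4a included, were not among them. CHOP, a C/EBP-family transcription factor that cells make under endoplasmic reticulum stress, was immunoprecipitated from chromatin of wild-type livers pooled from 3 mice that had received tunicamycin (1 mg/kg, intraperitoneal, 8 h), which blocks N-glycosylation. An input library was labelled as wild-type liver with the same treatment and was not analysed here on its own, and its use as the control in peak calling is not stated in the labels. Strain, age and sex are not given in the sources used here, and no untreated or CHOP-deficient liver was examined, so nothing below measures an effect of tunicamycin or of CHOP. There was 1 immunoprecipitated library and no replicate, and the peak list holds 14157 peaks. It carries no expression values, so the tissue label could not be checked against marker transcripts. Whole liver was used, and strong binding in few cells and weak binding in many cannot be told apart.

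Nuclear receptors are transcription factors that bind DNA through a conserved zinc-finger domain, and most are switched by small lipophilic ligands. In the liver they set the programmes of fatty acid oxidation, cholesterol and bile acid handling, drug metabolism and the response to glucocorticoids and thyroid hormone. Many bind DNA as a dimer with a retinoid X receptor, and most act by recruiting coactivators or corepressors. Others in the family are restricted to the nervous system, the retina, steroidogenic tissue or the reproductive tract.

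A promoter peak was one whose summit lay within 1 kb of a start site of a protein-coding transcript of the gene. A distal peak lay further away but within 50 kb, with that gene having the nearest protein-coding start site. Promoter peaks were present at 19 of the 40 receptor genes (47.5%), against 27.9% of all protein-coding genes. Distal peaks were also present at 19 of 40, against 18.02% of all genes. Of the 40 genes, 9 had both kinds, 10 had distal peaks alone, against 10.3% of all genes, and 11 had neither. At least 1 peak of either kind was assigned to 29 genes (72.5%), against 38.2% of all genes. Because the genes were chosen with earlier results of these data known, these shares carry no test.

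**Figure D1:**
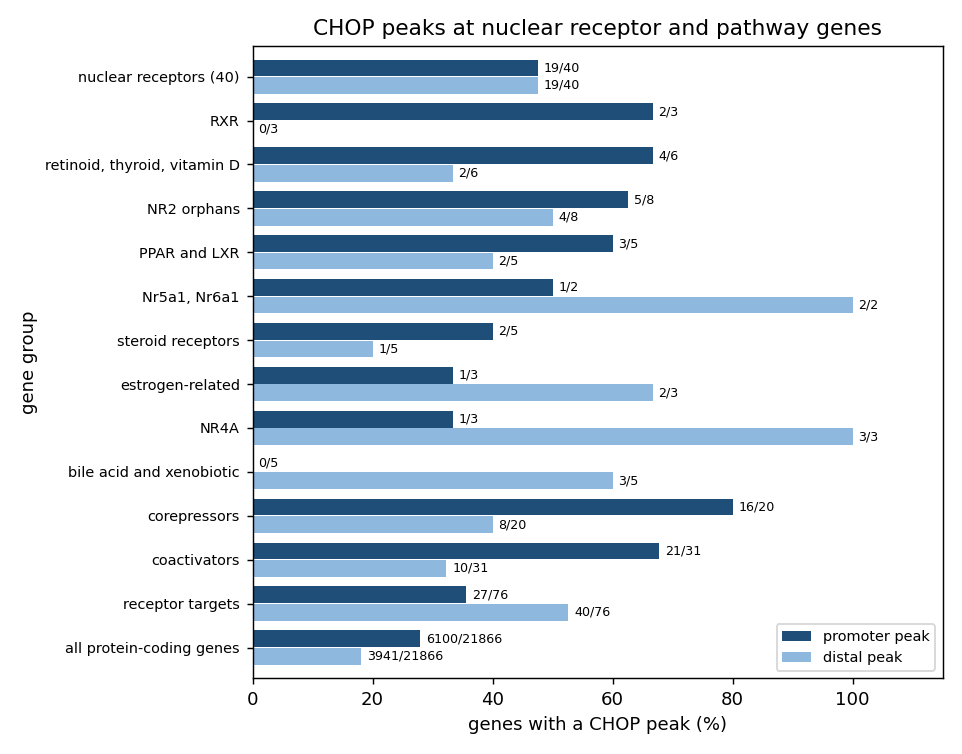
Share of genes with a CHOP promoter peak (dark bars) and with a distal peak (light bars), in percent, for the 40 nuclear receptor genes, their classes, the coregulators, the receptor targets and all protein-coding genes, with counts at the bar ends. The receptor genes as a whole stood at 19 of 40 for both kinds of peak, and the bile acid and xenobiotic class had no promoter peak.

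Properties of the gene models differed from those of the average gene and moved with these counts. The receptor genes had a median of 4 start sites, against 2 for all genes. All 19 with a promoter peak were among the 30 with 3 or more start sites, where 38.6% of all genes had one. None of the 10 with 1 or 2 start sites had a promoter peak, against 22.1% of all such genes. With the outermost start site alone, 14 of 40 receptor genes (35.0%) had a promoter peak, against 25.5% of all genes. The zone within 50 kb in which a receptor gene had the nearest start site was a median of 89.7 kb, against 46.4 kb for all genes. Among the 28 receptor genes with a zone of 60 kb or more, 16 had a distal peak, against 28.2% of all genes with such a zone. From 30 to below 60 kb 2 of 3 had one, against 17.5%, and below 30 kb 1 of 9, against 7.49%. The part of these properties in the counts was not tested beyond these strata.

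The 19 genes carried 26 promoter peaks. Of all 40 receptor genes, 6 had 2 or more, against 3.60% of all genes. The authors' fold enrichment is the summit pileup over the local background, after 1 read is added to each. It had a median of 6.11 over the 26 peaks (3.64 to 27.3), against 6.65 over all 6306 promoter peaks. The summit pileup had a median of 13.5 reads (6 to 66), and 7 of the 26 rested on 10 reads or fewer, against 1917 of all 6306. In 5 genes a promoter peak reached a fold of 10 or more (12.5%), against 6.51% of all genes. These were Nr3c1, Rara, Rxra, Nr2f2 and Nr2c2. Of the 26 summits, 13 lay within 100 bp of a start site and 23 within 250 bp, and they were split evenly between 13 upstream and 13 downstream. The median distance was 108 bp, the same as over all promoter peaks. By position, 12 summits lay in 5′ UTRs, 7 in introns, 1 in a coding exon and 6 outside the coding transcripts of the gene.

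**Figure D2:**
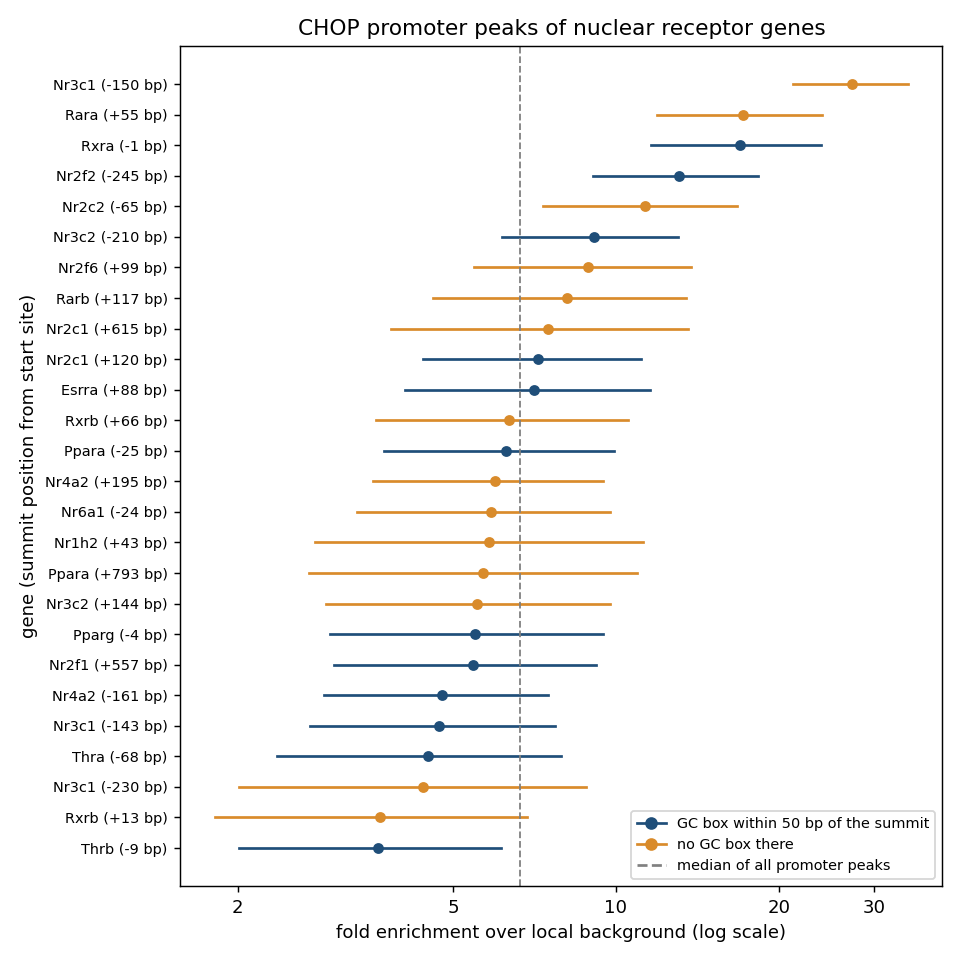
Fold enrichment (log scale) of the 26 promoter peaks of nuclear receptor genes, with the 95% exact Poisson interval on the summit pileup as bars. The dashed line is the median of all promoter peaks, and the colour shows whether a GC box lay within 50 bp of the summit. The highest fold was 27.3 at Nr3c1 and the lowest 3.64 at Thrb, and most intervals crossed the median of 6.65.

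The sequences under the strongest promoter summits show their base composition. They are the summit base with 50 bases on either side in mm10, 5′ to 3′ on the strand of the gene, for the 6 highest-fold peaks after that of Nr3c1. Capitals mark exact matches to any of the motifs searched, and the only motif found in these 6 windows was the GC box GGGCGG, the core of sites bound by Sp1-type factors, at Rxra, Nr2f2 and Nr3c2.
Rara, chr11:98937723-98937823, plus strand: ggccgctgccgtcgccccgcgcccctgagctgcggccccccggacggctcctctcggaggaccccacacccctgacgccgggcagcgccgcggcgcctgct
Rxra, chr2:27677150-27677250, plus strand: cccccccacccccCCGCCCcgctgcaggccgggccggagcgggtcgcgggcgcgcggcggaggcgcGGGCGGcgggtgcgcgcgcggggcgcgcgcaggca
Nr2f2, chr7:70360116-70360216, minus strand: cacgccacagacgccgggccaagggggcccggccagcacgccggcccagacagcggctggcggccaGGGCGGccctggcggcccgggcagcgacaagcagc
Nr2c2, chr6:92091275-92091375, plus strand: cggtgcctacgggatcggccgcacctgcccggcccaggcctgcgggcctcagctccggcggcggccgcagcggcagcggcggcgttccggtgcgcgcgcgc
Nr3c2, chr8:76899182-76899282, plus strand: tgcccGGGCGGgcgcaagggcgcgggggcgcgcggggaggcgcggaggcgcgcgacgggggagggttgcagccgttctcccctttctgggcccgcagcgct
Nr2f6, chr8:71381811-71381911, minus strand: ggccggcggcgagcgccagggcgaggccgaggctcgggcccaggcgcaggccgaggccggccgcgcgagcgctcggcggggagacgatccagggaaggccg

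These windows were 81.2% to 91.1% G and C. Over the 26 promoter windows the median GC share was 77.7% (44.6% to 91.1%), against 74.3% over all promoter windows. A share of 80% or more was found in 10 of the 26 (38.5%), against 21.5% of all promoter windows. GC boxes were found within 50 bp of the summit on either strand in 12 of the 26 peaks, at 12 different genes, against 45.4% of all promoter peaks.

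Motifs of basic leucine zipper factors, the class to which CHOP and its partners belong, were found in 1 of the 26 promoter windows. The C/EBP-ATF composite TGATGCAA was found in none of the 26 windows, against 0.840% of all promoter windows, and none of the 26 held it even with 1 mismatch, against 5.14%. The C/EBP palindrome TTGCGCAA, the cyclic AMP response element TGACGTCA and its relaxed form TGACGTNA, the AP-1 heptamer TGANTCA and the composite variant TGATGNAAT were found in none. The relaxed C/EBP form TTGCNNAA was found once, at Rarb, against 2.11% of all promoter windows. The relaxed forms include their palindromes. With any of these 7 motifs counted, 1 of 26 windows held a match, against 5.52%. The E-box CACGTG (5.41% of all promoter windows), the CCAAT box (7.53%) and the ETS core CCGGAAGN (4.03%) were in none of the 26 either. At these background rates few matches would be found in 26 windows, and a missing match says only that these letters are not in the window. The nuclear receptor core hexamer AGGTCA occurred in 1 promoter window, at the downstream peak of Nr2c1, against 3.14%. The NRF1 motif (3.85% of all promoter and 0.306% of all distal windows) matched no window of the 40 genes. The same held for the endoplasmic reticulum stress element, the receptor repeats DR1, DR4 and IR1 and the glucocorticoid response element. Over all 6306 promoter and 7851 distal windows, the stress element and IR1 matched 0 of either kind. DR1 matched 1 and 2, DR4 0 and 1, and the glucocorticoid element 4 and 27. These search strings are too rare for their absence to describe the 40 genes.

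Retinoid X receptors, the shared dimer partners, had promoter peaks at Rxra and Rxrb. Rxra, the main hepatic form, had 1 peak on chromosome 2, 27676788 to 27677829, whose summit lay 1 bp upstream of a start site. The pileup was 30 reads and the fold 16.9 (95% exact Poisson interval 11.6 to 24.0), above 93.8% of all promoter peaks. The peak was 1042 bp wide, and the 201 bp around its summit shared a 16-base word with 59 other peaks. Intervals given here and below hold the background fixed and cover counting error only. Rxrb had 2 weaker peaks of 6.35-fold (3.59 to 10.5, 13 reads) and 3.67-fold (1.82 to 6.84, 8 reads), at 66 and 13 bp inside 2 of its start sites. Both Rxrb summits also lay within 1 kb of a start site of Slc39a7, a zinc transporter gene, so position does not assign them to either gene. Rxrg had no peak, and the summit nearest to it was 65580 bp away.

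Retinoic acid receptors had promoter peaks at Rara and Rarb. At Rara, on chromosome 11, the peak at 98937630 to 98938325 reached 17.1-fold (11.9 to 24.0, 32 reads), and the 5′ UTR held its summit, 55 bp from the start site. Its interval was nearly the same as that of Rxra. Rara also had 2 intronic distal peaks, of 6.83-fold (4.19 to 10.6) at 7109 bp upstream of an internal start site and of 6.75-fold (3.34 to 12.6) at 4510 bp downstream of it. The window of the 6.83-fold peak was 44.6% repeat-masked, and the 201 bp around its summit shared a 16-base word with 156 other peaks. Rarb had an 8.11-fold peak (4.59 to 13.5, 13 reads) in its 5′ UTR, 117 bp inside a start site. Rarg had no promoter peak. Its summit, at 1388 bp upstream of a start site and inside an intron, had a fold of 4.67 (2.59 to 7.89).

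Thyroid hormone and vitamin D receptors stood at the low end. The Thra peak, on chromosome 11, reached 4.49-fold (2.36 to 7.91, 10 reads), 68 bp before a start site. Thrb, the main hepatic thyroid hormone receptor, had the lowest fold of the 26, 3.64 (2.01 to 6.14, 12 reads), 9 bp upstream of the start site of 2 transcripts. Of all promoter peaks, 1.19% had a lower fold than that of Thrb. Neither interval reached the lower bound of Rara or of Rxra. Vdr, the vitamin D receptor, had no peak within 50 kb, and the nearest summit was 235022 bp away.

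Fatty acid and oxysterol sensors had promoter peaks at 3 of 5 genes, against 27.9% of all genes. All of these peaks were below the median promoter fold. Ppara, which switches on fatty acid oxidation in fasting, carried 2 promoter peaks on chromosome 15. The first, at 85735352 to 85735734, had a fold of 6.26 (3.73 to 9.93, 16 reads), and the second, 793 bp inside another start site in an intron, had 5.67 (2.70 to 10.9, 7 reads). A distal summit in an intron 35412 bp from the start had a fold of 8.25 (4.35 to 14.5, 10 reads). These 3 intervals overlap, so the peaks of Ppara are not ordered by their fold. Pparg, the regulator of adipocyte differentiation, had a promoter summit of 5.48-fold (2.97 to 9.45), 4 bp outside a start site, and an intronic summit of 5.25-fold (2.40 to 10.5, 6 reads) 2604 bp inside another, with a relaxed C/EBP match. Nr1h2, which encodes LXRβ, had a 5.82-fold peak on 7 reads (2.77 to 11.2). Nr1h3, which encodes LXRα, had none. The summit nearest to it was 7691 bp away, at the promoter of Acp2, an acid phosphatase gene, with a fold of 6.75 on 8 reads. Ppard had no peak either, and the nearest summit, at 55394 bp, belonged to the promoter of Zfp523.

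Receptors of bile acids and xenobiotics and their partners in bile acid control had no promoter peak at any of 5 genes. These were Nr1h4 (the bile acid receptor FXR), Nr1i2 (PXR) and Nr1i3 (CAR), which sense drugs, Nr0b2 (SHP), a corepressor-like receptor induced by FXR, and Nr5a2 (LRH-1), which acts with SHP at bile acid genes. Their promoters were poor in CpG, with observed/expected ratios of 0.15 to 0.35 within 500 bp of the start sites. Below a ratio of 0.3, where 4 of the 5 lie with Nr2e3, none of 5 receptor genes had a promoter peak, against 2.02% of all genes in that range. From 0.3 to below 0.6, 10 of 23 receptor genes had one (43.5%), against 23.8%. At 0.6 and above, 9 of 12 had one (75.0%), against 51.9%.

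**Figure D3:**
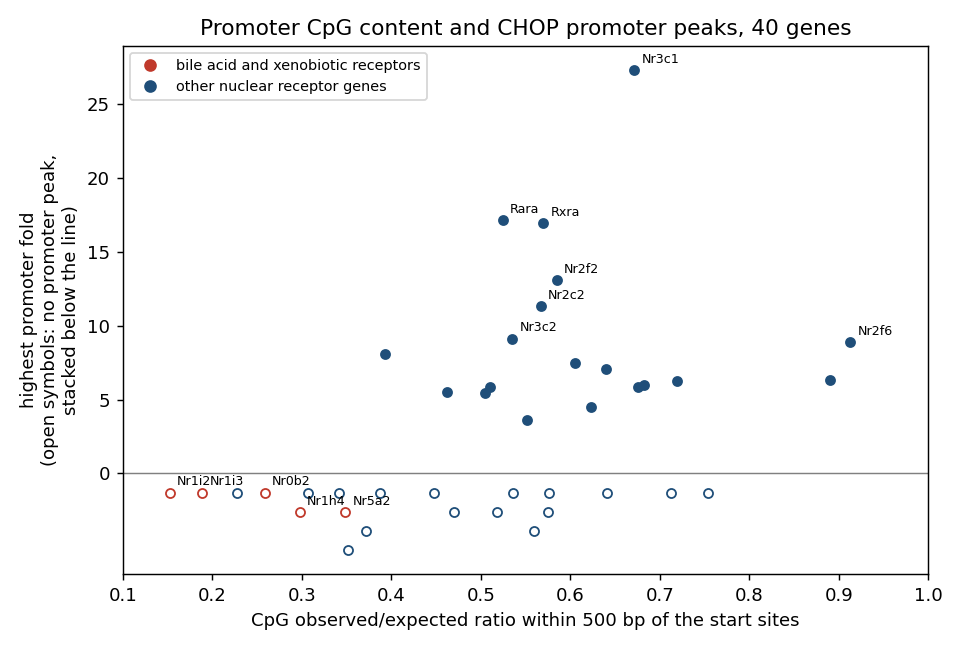
Highest promoter fold of each of the 40 receptor genes against the CpG observed/expected ratio around its start sites; open symbols are genes with no promoter peak, stacked below the line by position only. The 5 bile acid and xenobiotic receptors (red) lie at ratios of 0.15 to 0.35 without a promoter peak, and no gene below 0.3 had one.

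Peaks assigned to these genes were all distal. Nr1h4 had the strongest, on chromosome 10, 89531791 to 89532285. Its fold was 16.1 (11.0 to 22.8, 30 reads), above 89.1% of all distal peaks, and its summit lay in an intron 1492 bp downstream of a start site. Another intronic summit, 6166 bp upstream of an internal start site, had a fold of 11.2 (6.49 to 18.4, 14 reads). Nr5a2 had 4 distal peaks, the largest number among the 40 genes. Its intronic peaks at 21681, 23913 and 26751 bp from a start site had folds of up to 8.95 (4.84 to 15.4), on 11 reads. The weakest, 6834 bp upstream of the gene, had 5.25 on 6 reads. All 4 Nr5a2 intervals overlapped. Nr1i2 had an intronic summit of 5.18-fold (2.73 to 9.14, 10 reads) 12746 bp inside the gene, and the 201 bp around it shared a 16-base word with 274 other peaks. Nr1i3 had none within 50 kb, its nearest summit being at the promoter of B4galt3 56543 bp away. Nr0b2 had none either: the summit nearest to it, 7452 bp away, was at the promoter of Nudc, with a fold of 4.63 on 7 reads.

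Promoter peaks were at 2 of 5 steroid receptor genes (40%), against 27.9% of all genes. Both were corticosteroid receptors, and so few genes do not establish a division by receptor class. Nr3c1, the glucocorticoid receptor, had the strongest promoter peak of the 40 genes, on chromosome 18, 39489818 to 39490913. Its fold was 27.3 (21.2 to 34.6, 66 reads), above 97.8% of all promoter peaks. The interval lay above those of all other 25 promoter peaks except Rara and Rxra, which it overlapped. The peak was 1096 bp wide, and its summit, in an intron of longer transcripts, lay 150 bp upstream of a start site. On its flanks were 2 smaller peaks, of 4.72-fold (2.72 to 7.70, 14 reads) and 4.39-fold (2.01 to 8.82, 6 reads), at 143 and 230 bp upstream of other start sites. The gene has 9 start sites. Nr3c2, the mineralocorticoid receptor, had peaks of 9.12-fold (6.17 to 13.0, 28 reads) and 5.53-fold (2.91 to 9.74, 10 reads) on chromosome 8, 210 bp upstream of one start site and 144 bp inside another.

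Pgr (progesterone receptor), Esr1 (oestrogen receptor α) and Esr2 (oestrogen receptor β) had no promoter peak. They have 2, 3 and 2 start sites, against 9 and 6 for Nr3c1 and Nr3c2. Their CpG ratios were 0.52, 0.37 and 0.39, against 0.67 and 0.54. The part of these properties in the split was not tested. The summits nearest to Pgr and Esr2 were 127863 and 78036 bp away. Esr1, which hepatocytes use to respond to oestrogen, had 2 intronic distal peaks, described with the distal sites. Of the oestrogen-related receptors, orphan regulators of mitochondrial genes, Esrra had a 7.07-fold promoter peak (4.08 to 11.5, 14 reads) 88 bp into its 5′ UTR. Esrrb had a 12.0-fold intronic peak (7.05 to 19.3, 15 reads) 34378 bp from a start site, with 90.1% of its summit window (50 bp on either side) repeat-masked and a match to the extended hexamer TCAAGGTCA. Esrrg had an 8.51-fold peak (4.71 to 14.4, 12 reads) 4856 bp upstream.

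Among the NR2 orphan receptors 5 of 8 genes (62.5%) had promoter peaks, against 27.9% of all genes. These were the COUP-TF and testicular receptor genes. At Nr2f2 (COUP-TFII), known for its role in venous endothelium and organ mesenchyme, the peak on chromosome 7, 70359943 to 70360546, reached 13.1-fold (9.09 to 18.3, 32 reads). Its summit lay in a coding exon, 245 bp upstream of an internal start site. A broader and higher peak lay beside it at 70361051 to 70362189, with a fold of 18.5 (13.7 to 24.4, 48 reads). Its summit was 1307 bp upstream of a start site, which placed it just outside the promoter limit. Nr2f2 had 2 further summits, 8833 and 40986 bp downstream of a start site, with folds of 5.03 and 6.75, and the window of the second was wholly repeat-masked. Nr2f6 had an 8.90-fold peak (5.46 to 13.8, 18 reads) that was the widest of the 26, at 1739 bp. Nr2f1 (COUP-TFI) had a 5.45-fold peak (3.02 to 9.20, 12 reads) 557 bp inside a start site, whose window was 53.5% repeat-masked, and 2 summits of 5.30-fold and 6.76-fold within Fam172a, 32493 and 32953 bp downstream.

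At Nr2c2 (TR4), on chromosome 6, the peak at 92091168 to 92092032 reached 11.3-fold (7.34 to 16.7, 23 reads), 65 bp upstream of a start site. Its distal summit, 10680 bp upstream, had 15.7-fold (9.91 to 23.9, 20 reads) in a window 77.2% repeat-masked, and shared a 16-base word with 62 other peaks, 30 of them 290 to 340 bp wide. Nr2c1 (TR2), which forms heterodimers with TR4, had peaks of 7.50-fold (3.84 to 13.6, 9 reads) and 7.17-fold (4.40 to 11.1, 18 reads). The window of the 7.50-fold peak was 43.6% repeat-masked, and the 201 bp around its summit shared a 16-base word with 87 other peaks. The distal summits of Nr2c1, of 8.25-fold at 49740 bp upstream inside Fgd6 and of 3.70-fold on 4 reads, included the one closest to the 50 kb limit. Hnf4g, an intestinal and renal relative of Hnf4a, Nr2e1 (TLX), a neural stem cell factor, and Nr2e3, a photoreceptor factor, had no peak. The summits nearest to them were 191190, 17780 and 199252 bp away, and that near Nr2e1 lay inside Ostm1.

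NR4A receptors, immediate early genes that act without a classical ligand, all had distal peaks, against 18.02% of all genes. At Nr4a1 (NUR77), on chromosome 15, the peak at 101246357 to 101247004 reached 15.1-fold (10.6 to 20.8, 35 reads), 7735 bp upstream of a start site and outside any protein-coding gene. Nr4a3 (NOR1) had a 9.91-fold peak (6.37 to 14.8, 22 reads) 2108 bp upstream. Nr4a2 (NURR1) had promoter peaks of 5.97-fold (3.56 to 9.47) and 4.77-fold (2.89 to 7.48) at 2 start sites and a summit of 6.72-fold (3.33 to 12.5, 8 reads) 3750 bp upstream. Nr4a1 and Nr4a3 had no promoter peak, at CpG ratios of 0.75 and 0.64, against a median of 0.50 over all genes. Each has 2 start sites, and of all genes with 1 or 2 start sites 22.1% had a promoter peak. The part of these properties was not tested. Nr6a1, a germ cell receptor, had a 5.87-fold promoter peak (3.32 to 9.73) and a 6.75-fold intronic summit with an AP-1 match. Nr5a1 (SF-1), which directs steroidogenesis in adrenal and gonad, had a weak summit 3073 bp upstream, of 5.72-fold (3.01 to 10.1, 10 reads), whose surrounding 201 bp shared a 16-base word with 761 other peaks.

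The 29 distal peaks lay a median of 8716 bp from a start site, and 17 of them within 10 kb. Introns of the gene held 17, and 12 were outside its coding transcripts. Their median fold was 6.76 (3.70 to 90.7), against 6.75 over all 7851 distal peaks. Of the 29, 14 rested on 10 reads or fewer, against 4572 of all 7851. Motifs of basic leucine zipper factors were in 4 of 29 distal windows, against 16.7% of all distal windows, and the composite itself in none, against 4.71%. With 1 mismatch allowed, 7 of 29 held the composite, against 19.6%. The core hexamer AGGTCA was in 3 of 29, against 8.09%. Of the 29 windows, 4 were repeat-masked over more than 50% of their length (13.8%), against 33.1% of all distal windows.

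**Figure D4:**
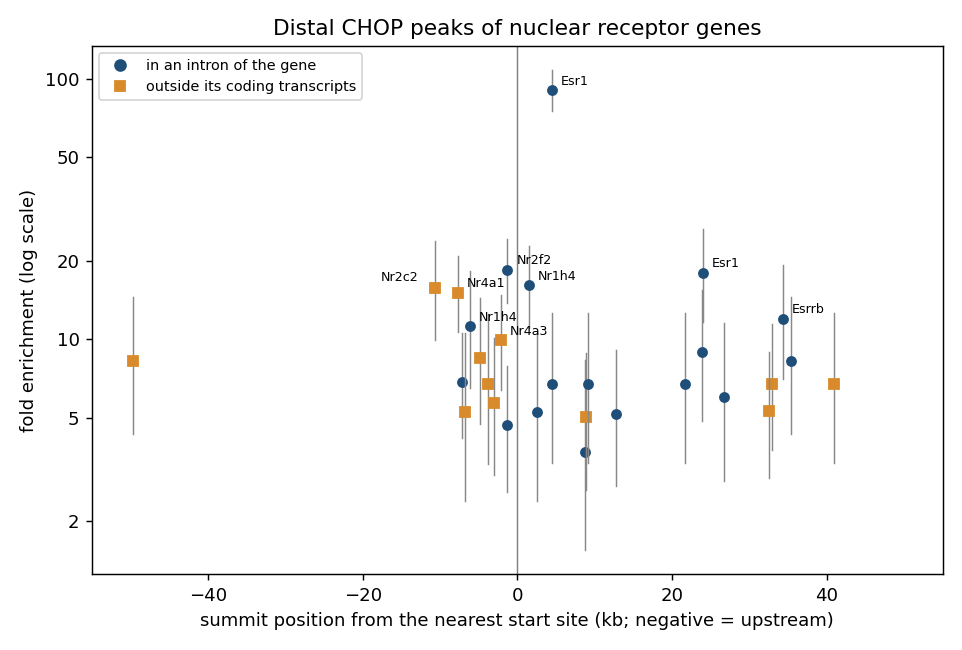
Fold enrichment (log scale) of the 29 distal peaks against the position of the summit from the nearest start site in kb, with 95% exact Poisson intervals as bars; circles lie in an intron of the gene and squares outside its coding transcripts. Apart from the 90.7-fold summit in Esr1, folds ran from 3.70 to 18.5, and 17 of the 29 lay within 10 kb.

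The highest fold among the 40 genes was at Esr1, on chromosome 10, 4616372 to 4616686. The fold was 90.7 (75.4 to 108, 120 reads), in an intron 4508 bp downstream of a start site, above 99.7% of all distal peaks. The peak was 315 bp wide. Of its summit window 34.7% was repeat-masked, and the surrounding 201 bp shared a word of 16 bases with 200 other peaks, of which 128 were 290 to 340 bp wide. The part of this shared sequence in the fold was not tested. The window held none of the motifs searched, apart from 1 match to the composite with 1 mismatch.

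A few distal windows are shown for comparison with the promoter windows. Nr2f2 and the downstream Esr1 summit have the next highest folds, and those of Nr1h4 and Nr4a2 are added, after their values were seen, as the strongest distal site of a bile acid receptor and the only receptor window with a relaxed cyclic AMP element. The Esr1 summit 24004 bp downstream had a fold of 17.999 (11.7 to 26.6, 23 reads), and its 201 bp shared no 16-base word with any other peak. Capitals again mark exact motif matches.
Nr2f2, chr7:70361850-70361950, minus strand: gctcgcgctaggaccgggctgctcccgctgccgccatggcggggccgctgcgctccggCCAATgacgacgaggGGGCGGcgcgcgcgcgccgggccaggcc
Esr1, chr10:4734109-4734209, plus strand: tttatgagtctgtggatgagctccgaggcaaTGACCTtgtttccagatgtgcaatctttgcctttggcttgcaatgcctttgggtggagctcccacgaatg
Nr1h4, chr10:89532043-89532143, minus strand: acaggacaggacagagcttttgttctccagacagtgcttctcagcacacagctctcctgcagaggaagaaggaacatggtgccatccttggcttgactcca
Nr4a2, chr2:57127703-57127803, minus strand: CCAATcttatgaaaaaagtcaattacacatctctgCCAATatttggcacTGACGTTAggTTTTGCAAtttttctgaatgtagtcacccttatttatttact

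The Nr2f2 window held a CCAAT box and a GC box, and was as rich in G and C (82.2%) as the promoter windows. The Esr1 window held the complement of AGGTCA. Nr4a2 held 2 CCAAT boxes, the element TGACGTTA and, 2 bases after it, the complement of a relaxed C/EBP site, in a window of 32.7% G and C. The Nr1h4 window held none of the 19 motifs searched.

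Promoter peaks were also present at receptor genes outside the set. Rora and Nr1d2, both of the clock, had folds of 19.2 (13.6 to 26.4) and 11.2 (7.59 to 16.0). Nr1h5 had a weaker one of 6.90-fold (3.73 to 11.9, 11 reads), 956 bp upstream of a start site and so near the 1 kb limit. Its window was 81.2% repeat-masked. Hnf4a had 4 distal peaks, the strongest of 17.2-fold (11.1 to 25.7) at 11826 bp upstream with an AP-1 match. Nr1d1, Rorb and Nr0b1 had neither kind.

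Coregulators, through which the receptors act, had promoter peaks at 37 of 51 genes (72.5%), against the 27.9% of all genes. Corepressors had them at 16 of 20 and coactivators at 21 of 31. The median CpG ratio was 0.54 for the receptor genes, 0.62 for the coregulators and 0.50 for all genes. The coregulators had a median of 4 start sites, against 2 for all genes. Of all genes with 3 or more start sites 38.6% had a promoter peak, and of all genes at a CpG ratio of 0.6 or above 51.9%. The part of these properties in the coregulator count was not tested. The coactivator Ncoa1 (SRC-1) led with 59.2-fold (47.0 to 73.8, 78 reads), 949 bp upstream of a start site, with 53.5% of the window repeat-masked. The Mediator subunit Med13l followed with 32.3-fold (25.5 to 40.5) and the histone methyltransferase Kmt2c with 19.4-fold (14.8 to 24.9). The acetyltransferase Ep300 had 11.9-fold and the deacetylase Hdac5 11.2-fold. The PGC-1 family members Ppargc1b and Pprc1 both had 10.8-fold, and the corepressor Lcor 10.4-fold. The strongest receptor promoter peak, 27.3-fold at Nr3c1, was below those of Ddit3, the gene of CHOP itself, at 60.9-fold (49.2 to 74.5), and of Ppp1r15a (GADD34), a known CHOP target, at 40.6-fold (31.2 to 51.9). The interval of Nr3c1 overlapped that of Ppp1r15a and not that of Ddit3. The Ddit3 window held the composite TGATGCAA, which no window of the 40 genes did. The Ppp1r15a summit also lay within 1 kb of a start site of Plekha4.

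Liver target genes of the receptors had promoter peaks at 27 of 76 genes (35.5%), near the 27.9% of all genes, and distal peaks at 40 of 76 (52.6%), against 18.02%. Over all genes the distal share ran from 7.49% to 28.2% with the size of the zone in which the gene has the nearest start site. That zone was not measured for the targets, so its part in their distal counts was not tested. Glucocorticoid receptor targets had promoter peaks at 8 of 14, with Pck1, the gluconeogenic carboxykinase, at 10.5-fold (5.94 to 17.4) and Per1 and Lcn2 both at 8.999-fold. Targets of the oestrogen-related receptors had 6 of 11, with Sdhb, a succinate dehydrogenase subunit, at 12.2-fold, Cycs at 8.07-fold and Gabpa at 6.79-fold, its summit shared with Atp5j. LXR targets had 4 of 10, led by Lpcat3 at 9.85-fold, Fasn at 5.99-fold and Srebf1 at 5.03-fold. Thyroid hormone targets had 3 of 8, with Klf9 at 6.34-fold, Me1 at 5.02-fold and Bcl3 at 4.26-fold.

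PPARα targets had promoter peaks at 3 of 15, among them Cpt1a, the gatekeeper of mitochondrial fatty acid import, at 7.50-fold and Acot1 at 4.86-fold. Targets of CAR and PXR had 2 of 13, Alas1 at 9.76-fold and Ugt1a1 at 7.12-fold. FXR targets had 1 of 9, the phospholipid transporter gene Abcb4 at 12.9-fold (8.70 to 18.4). The promoter shares of the PPARα targets, the CAR and PXR targets and the FXR targets were all below the 27.9% of all genes. Distal peaks were at 8 of 13 CAR and PXR targets, 6 of 9 FXR targets, 7 of 10 LXR targets, 9 of 14 glucocorticoid receptor targets, 5 of 8 thyroid hormone targets, 7 of 15 PPARα targets and 2 of 11 targets of the oestrogen-related receptors, against 18.02% of all genes. The median CpG ratio was 0.27 for CAR and PXR targets, 0.25 for FXR targets and 0.41 for PPARα targets. Of all genes with a ratio below 0.3, 2.02% had a promoter peak, and from 0.3 to below 0.6, 23.8%. The part of CpG content in these counts was not tested.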

How the data were processed

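Chromatin of CHOP-immunoprecipitated liver (1 library, a pool of 3 mice) and 1 input library were sequenced. Per the labels' protocols, Bowtie placed single-end reads on mm10 (at most 2 mismatches), reads beyond 2 at a position and strand were dropped, SAMtools 1.9 and Sambamba 0.7.1 filtered the alignments, and MACS2 2.1.2 called peaks at its defaults. The authors deposited for each peak a fold, −log10 p, −log10 q, a score equal to 10 times −log10 q within 1, and the summit offset. The fold is the ratio of summit pileup to local background, after 1 read is added to each. The input was not analysed on its own. Total depth is unknown.

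The whole-number pileup was solved from the fold and −log10 p of each peak (median 11 reads, 4 to 329; largest residual 3.13e-05), a step that was tested on simulated data. In 4181 peaks (29.5%) the background stood at its genome-wide value of 0.333 reads, so a few reads move the fold by much. The labels mention no molecular identifiers, and intervals cover counting error only. GENCODE M21 gave the start sites of protein-coding transcripts. Sequence came from RefSeq GRCm38.p6, which is mm10. Python 3.11.15 with numpy 2.4.6, scipy 1.17.1 and matplotlib 3.10.9 was used.

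The genes, the pathway lists and the motifs were chosen with earlier results of these data known, and no test was run: with 1 library there is no replicate error, and shares are given beside those of all 21866 protein-coding genes. All 40 genes are named. Outside them the text names other receptors, the 8 coregulators and up to 3 targets per receptor with the highest promoter fold, and Ddit3 and Ppp1r15a. Where a gene had several promoter peaks, the highest fold stands for it. Sequence on chromosome 18 is not shown, and some items that this rule names are not reported here.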

Additional observations from a re-analysis of the deposited data

How the results depend on the processing

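No paired analysis was possible because there is 1 immunoprecipitated library and no test between samples. The count of 19 of 40 receptor genes with a promoter peak ran from 14 (outermost start site only) to 22 (summits within 3 kb), and the share in all genes from 21.0% to 30.3% over the same alternatives. With −log10 q of at least 5, and likewise with a fold of at least 5, it was 17. The count with a distal peak, 19, ran from 16 to 22 over all alternatives but one, and the share in all genes from 13.1% to 20.4%. The exception was counting any gene within 50 kb, which gave 26, where 51.8% of all genes had one. Coregulators with a promoter peak ran from 30 to 38 of 51. Receptor targets fell to 17 of 76 with −log10 q of at least 5, against 21.0% of all genes, and reached 35 with summits within 3 kb. None of the 5 bile acid and xenobiotic receptors gained a promoter peak under any alternative but the 3 kb limit, which added 1; this repeat was chosen after seeing the data. GC box matches in promoter windows fell to 6 of 26 within 25 bp and reached 19 within 100 bp. The shares over all promoter peaks at these window lengths were not computed, so the change is not read as a trait of the receptor genes. Taking the promoter peak nearest to a start site gave 4.72-fold at Nr3c1, 5.53-fold at Nr3c2 and 3.67-fold at Rxrb in place of 27.3, 9.12 and 6.35. The order of the 19 genes by −log10 q was within 3 ranks of that by fold for every gene. No replicate could be left out, and depth limits the weaker peaks. Of the promoter peaks, 7 of 26 rested on 10 reads or fewer, against 1917 of all 6306. Of the distal peaks, 14 of 29 did, against 4572 of all 7851.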
